A study of Mus musculus with 6 samples.

Results

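The genes described here are those of the enzymes that remove trimethylation from lysine 27 of histone H3 (H3K27me3) and of the complex that writes it, in the hypothalamus of obese mice given GSK-J4 or vehicle. They are the demethylases Kdm6a and Kdm6b, the methyltransferases Ezh1 and Ezh2, the core subunits Eed, Suz12, Rbbp4 and Rbbp7 of the Polycomb repressive complex PRC2, and the accessory subunits Jarid2 and Mtf2. Every array probe whose gene name in the scanner output equals one of these 10 symbols was taken, whatever its values, which gave 28 of 56605 probes and 10 of 37074 gene names. The RNA came from male mice of the strain C57BL/6J DIO, for which no engineered allele is labelled. All animals were made obese by a diet with 60 kcal% fat, begun at 6 weeks of age and kept up for 16 weeks. The 3 treated mice received GSK-J4 at 30 mg/kg and the 3 control mice received vehicle, a different animal for each array. The deposited design gives day 4 after exposure for both groups, whereas the methods describe a longer course of daily injection without giving the day of the arrays. Tissue was taken 6 h after lights on, and each RNA was hybridized to its own Agilent SurePrint G3 mouse array.

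H3K27me3 marks chromatin whose genes are kept silent. PRC2 writes the mark through Ezh2 or, mostly in non-dividing cells such as neurons, through Ezh1, and neither enzyme works without Eed, which binds the finished mark, and Suz12, which holds the complex together. Rbbp4 and Rbbp7 are related histone-binding proteins that PRC2 shares with other chromatin complexes, whereas Jarid2 and Mtf2 bring PRC2 to its sites. Kdm6a (Utx) and Kdm6b (Jmjd3) erase the mark with their Jumonji domains. GSK-J4 enters cells as an ester and inhibits the activity of both demethylases, so that the mRNA levels measured here are those of the drug's targets and of the opposing enzyme, not their activity.

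The probes on which the results turn are shown first, in lower case and from 5′ to 3′, with their position on the mm9 build as the files give it. The first 2 are the probes to the RefSeq mRNAs of the inhibited demethylases.

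Kdm6a, probe A_55_P2735645, chrX:17841828-17846324, plus strand: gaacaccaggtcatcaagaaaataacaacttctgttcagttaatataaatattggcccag

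Kdm6b, probe A_51_P122017, chr11:69213554-69213698, minus strand: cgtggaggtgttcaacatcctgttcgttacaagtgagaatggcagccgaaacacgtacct

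The next 4 are Ezh2 probes, in order from the 5′ side of the gene, because they gave unequal differences between the groups.

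Ezh2, probe A_55_P2619337, chr6:47506086-47506145, minus strand: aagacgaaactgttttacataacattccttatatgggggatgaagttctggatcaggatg

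Ezh2, probe A_55_P2619332, chr6:47502445-47504139, minus strand: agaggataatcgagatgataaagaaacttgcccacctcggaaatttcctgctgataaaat

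Ezh2, probe A_55_P2619322, chr6:47494464-47494523, minus strand: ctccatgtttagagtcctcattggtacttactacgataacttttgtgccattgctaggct

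Ezh2, probe A_51_P248067, chr6:47482047-47482942, minus strand: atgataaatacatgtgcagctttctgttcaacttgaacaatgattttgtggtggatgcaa

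The last 3 were called lower on the treated arrays, of which the Rbbp7 probe has a RefSeq mRNA record and the others do not, and the first 30 of their 60 bases are given.

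Kdm6a, probe A_55_P2738212, chrX:17811036-17813841, plus strand: tgaaattcagtttcacattgcccacttata

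Suz12, probe A_55_P2642951, chr11:79812947-79813006, plus strand: atcttactacctcacctgtggagaagtggc

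Rbbp7, probe A_51_P114385, chrX:159216360-159216419, plus strand: gagttgtttttattgaatgtattgctacat

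Where the coordinates span more than the 60 bases of a probe, as they do for 7 of the 26 tested probes, the probe lies across at least 1 intron. Whether the other probes lie in coding sequence or in untranslated exons was not assigned, because the gene table at hand is on another build.

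All 3 vehicle arrays lay on slide 1 and all 3 GSK-J4 arrays on slide 2, each slide with a scan of its own. In every difference below, the effect of the slide and that of GSK-J4 cannot be told apart. The raw signal at the 75th percentile ranged from 787 to 916 on the vehicle arrays and from 406 to 461 on the GSK-J4 arrays, and 62.8% to 63.6% of the probes were well above background on the former compared with 57.7% to 58.7% on the latter. Vehicle replicate 1 stood apart in the 6 choroid plexus markers, whose mean log2 signal was 13.1 there, 7.92 and 8.10 on the other vehicle arrays and 7.95 to 9.21 on the GSK-J4 arrays. Of the 12 hypothalamic neuropeptide genes looked up, Avp, Pmch and Trh were well above background on 1 vehicle array and 2 GSK-J4 arrays each, and the other 9 passed the filter. Among these Pomc and Npy were higher on the GSK-J4 arrays, by 0.85 (SE 0.14) and 0.42 (SE 0.07), with limma adjusted p = 0.0211 and 0.0240. The part of slide, signal strength and these markers in the results below was not tested. The RNA is from whole tissue, in which fewer cells of a type and less RNA per cell cannot be told apart.

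Of the 28 probes, 26 passed the filter, that is, were well above background throughout the vehicle group, the GSK-J4 group or both, and were tested, and 24 were so on all 6 arrays. All values below are deposited log2 signals after quantile normalization, differences are GSK-J4 minus vehicle, and a call is an adjusted p of at most 0.05 from limma over all 34444 probes kept. Limma called 1 member probe higher, that of Ezh2, where 8.39% of all kept probes were called higher. It called 3 lower, those of Kdm6a, Suz12 and Rbbp7, where 8.42% of all kept probes were called lower. The Kdm6a and Suz12 probes among these 3 were not well above background on any GSK-J4 array and had passed the filter through the vehicle arrays alone, so that their calls are not read as support for a lower signal. In a fit on the probes well above background throughout, 1 of the 24 member probes was called higher and 1 lower, where 10.8% and 9.03% of all 30962 such probes were. The thresholds in the methods are a fold of at least 1.5 with an unadjusted p of at most 0.05 from a t-test. With limma's unadjusted p in its place, 0 member probes were higher where 4.79% of all kept probes were, and 4 were lower where 7.86% were. None of these 4 had a RefSeq mRNA record. They included the Kdm6a and Suz12 probes that had passed the filter through the vehicle arrays alone. The 3 arrays of each group did not overlap for 11 of the 26 probes, compared with 45.6% of all kept probes. In shares, 3.85% of the member probes were called higher, 11.5% were called lower and 42.3% did not overlap, so these counts are given beside the background and not as a result about the members as a group. With 1 probe for each gene, that with the highest mean, limma called 1 of the 10 genes, Ezh2, where it called 16.8% of the 22117 genes, 8.99% higher and 7.79% lower. With the mean of all tested probes of a gene instead, Ezh2 differed by 0.25 (SE 0.08) and was not called (adjusted p = 0.0791), and Rbbp7, at −0.38 (SE 0.09), was (adjusted p = 0.0442). In that mean Kdm6a differed by −0.37 (SE 0.10, adjusted p = 0.0630), where the RefSeq probe alone gave 0.05, and Ezh1 by 0.13, where its RefSeq probe gave −0.11. The Kdm6a mean includes the probe that had passed the filter through the vehicle arrays alone. It is therefore not read as support for a lower Kdm6a signal. With 3 arrays in each group the two-sided exact permutation test has a smallest p of 0.1, which is the value of each probe whose groups did not overlap.

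**Figure D1:**
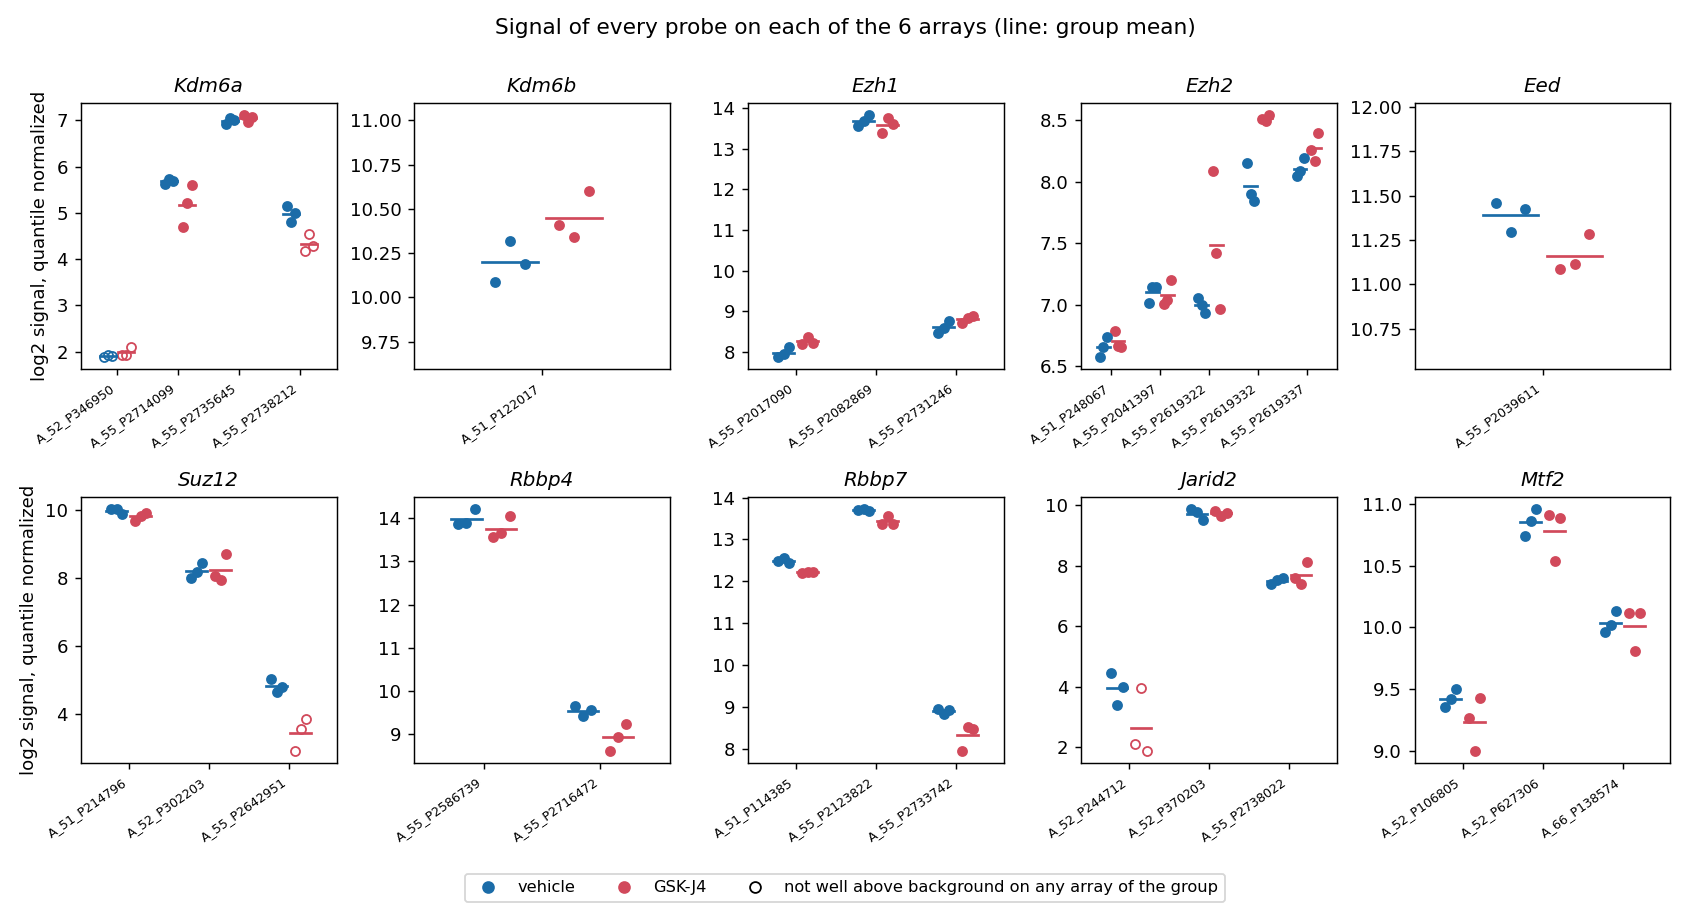
Quantile normalized log2 signal of all 28 probes of the 10 genes on each array, with vehicle in blue, GSK-J4 in red and the group means as lines. Open circles mark groups in which no array was well above background, as for the Kdm6a probe A_55_P2738212 and the Suz12 probe A_55_P2642951 on the GSK-J4 arrays. The Ezh2 probe A_55_P2619332 lies at 7.85 to 8.15 on the vehicle arrays and at 8.49 to 8.54 on the GSK-J4 arrays.

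Kdm6a, the X-linked demethylase and a target of the drug, had 4 probes that did not move together. The probe to its RefSeq mRNA read 6.92, 7.06 and 7.02 on the vehicle arrays and 7.11, 6.96 and 7.08 on the GSK-J4 arrays. The groups overlapped and differed by 0.05 (SE 0.08, 95% interval −0.15 to 0.25, limma adjusted p = 0.660), and the difference was −0.09 when arrays were scaled to their 75th percentile. A change within that interval cannot be told from no change at this precision. The probe A_55_P2714099, to an Ensembl transcript, read 5.62, 5.73 and 5.70 with vehicle and 4.69, 5.22 and 5.61 with GSK-J4. Its groups did not overlap, but GSK-J4 replicate 3 lay close under the lowest vehicle array, and the difference of −0.51 (SE 0.23, limma adjusted p = 0.171) was not called. Without GSK-J4 replicate 1 this difference was −0.27, and without replicate 3 it was −0.73. The probe A_55_P2738212, to a cDNA clone record, read 5.14, 4.80 and 5.01 with vehicle and 4.18, 4.54 and 4.29 with GSK-J4, where no array had it well above background. The vehicle mean was 1.39-fold above the lowest signals measured above background on the GSK-J4 arrays. This is not a firm lower limit of the fold. Limma's adjusted p was 0.0330, but the probe passed the filter only through the vehicle group, where it is high. Leaving out an array ended this call in 5 of 6 cases, with the exception of GSK-J4 replicate 2. The same step lowered the calls over all kept probes from 5788 to between 5 and 4166, so lost calls are not particular to single probes. The probe A_52_P346950, to another Ensembl transcript, was not well above background on any of the 6 arrays and was not tested.

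Kdm6b, the inducible relative of Kdm6a and the other target of the drug, had 1 probe. It read 10.09, 10.32 and 10.19 with vehicle and 10.41, 10.34 and 10.60 with GSK-J4. All 3 treated arrays were above all 3 controls, by a margin of 0.02 between GSK-J4 replicate 2 and vehicle replicate 2. The difference was 0.25 (SE 0.11, 95% interval −0.01 to 0.51), which limma did not call (adjusted p = 0.148), and it was 0.09 after a correction for the base composition of the probes.

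Ezh2, the methyltransferase subunit of PRC2 that is best known from dividing cells, held the call for a higher signal, on 1 of its 5 probes. All 5 are assigned to the same RefSeq mRNA. The called probe, A_55_P2619332, read 8.15, 7.90 and 7.85 with vehicle and 8.51, 8.49 and 8.54 with GSK-J4. The treated arrays lay within 0.05 of each other and all were above the highest control, and the signal was 1.46-fold higher (log2 difference 0.55, SE 0.10, 95% interval 0.30 to 0.80, limma adjusted p = 0.0260). Leaving out any array ended the call, with differences of 0.49 to 0.64 and adjusted p of 0.0515 to 0.0933. Without vehicle replicate 1, the array rich in choroid plexus transcripts, the difference was 0.64. Over all kept probes, leaving out 1 array lowered the calls from 5788 to between 5 and 4166.

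The other Ezh2 probes were not called, and differences between probes were not tested. The probe A_55_P2619322 read between 6.93 and 7.06 with vehicle and 8.09, 7.42 and 6.96 with GSK-J4. Its difference of 0.49 (SE 0.28, adjusted p = 0.252) rested on GSK-J4 replicates 1 and 2, since replicate 3 lay among the controls, and without replicate 1 it was 0.20. The probe nearest the 5′ end, A_55_P2619337, differed by 0.17 (SE 0.09, adjusted p = 0.235), with values of 8.04 to 8.19 with vehicle and 8.17 to 8.40 with GSK-J4. The 2 probes on the 3′ side of the gene showed the smallest differences, 0.04 (95% interval −0.16 to 0.24) for A_51_P248067 and −0.02 (95% interval −0.24 to 0.20) for A_55_P2041397. The intervals of these 2 lay under that of the called probe, which lies 22.1 kb upstream of the probe nearest the 3′ end.

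Ezh1, the methyltransferase that carries much of PRC2 activity in resting cells, was not called on any of its 3 probes. The probe to its RefSeq mRNA read 13.56, 13.68 and 13.82 with vehicle and 13.39, 13.76 and 13.59 with GSK-J4, with overlapping groups and a difference of −0.11 (SE 0.12, adjusted p = 0.561) that turned to 0.17 under scaling to the 75th percentile. Both probes to an Ensembl transcript pointed the other way. A_55_P2017090 read 7.88, 7.95 and 8.12 with vehicle and 8.20, 8.38 and 8.23 with GSK-J4, without overlap and with a difference of 0.28 (SE 0.10, adjusted p = 0.0947). It was called only after the correction for base composition, with a difference of 0.44 and an adjusted p of 0.0416. A_55_P2731246 differed by 0.20 (SE 0.10, adjusted p = 0.209) with overlapping groups.

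Eed, the subunit that reads the mark, had 1 probe, which read 11.46, 11.30 and 11.42 with vehicle and 11.09, 11.12 and 11.28 with GSK-J4. All 3 treated arrays were below the controls, and the difference of −0.23 (SE 0.09, 95% interval −0.45 to −0.01) was not called after adjustment (limma adjusted p = 0.124).

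Suz12, the scaffold of the complex, gave the lowest fitted difference of the members, −1.38, on 1 of its 3 probes. The probe A_55_P2642951, to an Ensembl transcript, read 5.01, 4.64 and 4.80 with vehicle and 2.91, 3.56 and 3.86 with GSK-J4, where no array had it well above background. The vehicle mean was 1.24-fold above the lowest signals measured above background on the GSK-J4 arrays, and limma's adjusted p was 0.0268. This probe too had passed the filter only through the vehicle group, and its call ended when any vehicle array was left out. The RefSeq probes of Suz12 were not called. A_51_P214796 read 10.04, 10.03 and 9.88 with vehicle and 9.69, 9.83 and 9.93 with GSK-J4, a difference of −0.16 (SE 0.09, adjusted p = 0.257). A_52_P302203 read 8.02, 8.19 and 8.45 with vehicle and 8.05, 7.95 and 8.72 with GSK-J4, a difference of 0.02 (SE 0.23, adjusted p = 0.958) with an interval of −0.56 to 0.60 that leaves room for a change either way.

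Rbbp4 and Rbbp7, the histone-binding subunits, had lower mean signals with GSK-J4 on all 5 of their probes, 1 of which was called and 2 of which turned under scaling to the 75th percentile. The called probe, A_51_P114385 of Rbbp7, read 12.48, 12.55 and 12.43 with vehicle and 12.19, 12.23 and 12.21 with GSK-J4. The groups did not overlap, and the signal was 1.21-fold lower (log2 difference −0.28, SE 0.07, limma adjusted p = 0.0474). Leaving out any array ended this call, with differences of −0.31 to −0.25, and the difference was −0.10 when arrays were scaled to their 75th percentile and −0.12 after the correction for base composition. The second RefSeq probe of Rbbp7, A_55_P2123822, lies 233 bases further on and read 13.70, 13.72 and 13.67 with vehicle and 13.36, 13.57 and 13.37 with GSK-J4. Its difference was of like size, −0.27 (SE 0.09, adjusted p = 0.0816), but became 0.01 under scaling to the 75th percentile. The third, A_55_P2733742, belongs to a cDNA clone record and read 8.95, 8.82 and 8.92 with vehicle and 7.94, 8.52 and 8.47 with GSK-J4. It was lower by the fold of the methods (log2 difference −0.59, SE 0.17, adjusted p = 0.0647).

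The RefSeq probe of Rbbp4 read 13.86, 13.88 and 14.21 with vehicle and 13.56, 13.66 and 14.05 with GSK-J4, with overlapping groups and a difference of −0.23 (SE 0.17, adjusted p = 0.366). Scaling to the 75th percentile turned it to 0.06. The Ensembl probe A_55_P2716472 read 9.64, 9.42 and 9.56 with vehicle and 8.61, 8.93 and 9.24 with GSK-J4. Its groups did not overlap and it passed the thresholds of the methods at 1.53-fold lower, with an adjusted p of 0.0605.

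Jarid2 and Mtf2, which bring the complex to chromatin, were not called on any tested probe. The RefSeq probe A_52_P370203 of Jarid2 read 9.87, 9.76 and 9.51 with vehicle and 9.80, 9.65 and 9.75 with GSK-J4, with a difference of 0.02 (SE 0.12, 95% interval −0.27 to 0.30). The probe A_55_P2738022 differed by 0.20 (SE 0.20), which came from GSK-J4 replicate 3 at 8.12, the other 5 arrays being at 7.39 to 7.60. The third Jarid2 probe, A_52_P244712 to an Ensembl transcript, was well above background on 2 vehicle arrays and on no GSK-J4 array and was not tested. The 3 Mtf2 probes differed by −0.19 (SE 0.12), −0.08 (SE 0.13) and −0.02 (SE 0.11), all with overlapping groups, and on each of them GSK-J4 replicate 2 was the lowest of the 6 arrays.

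**Figure D2:**
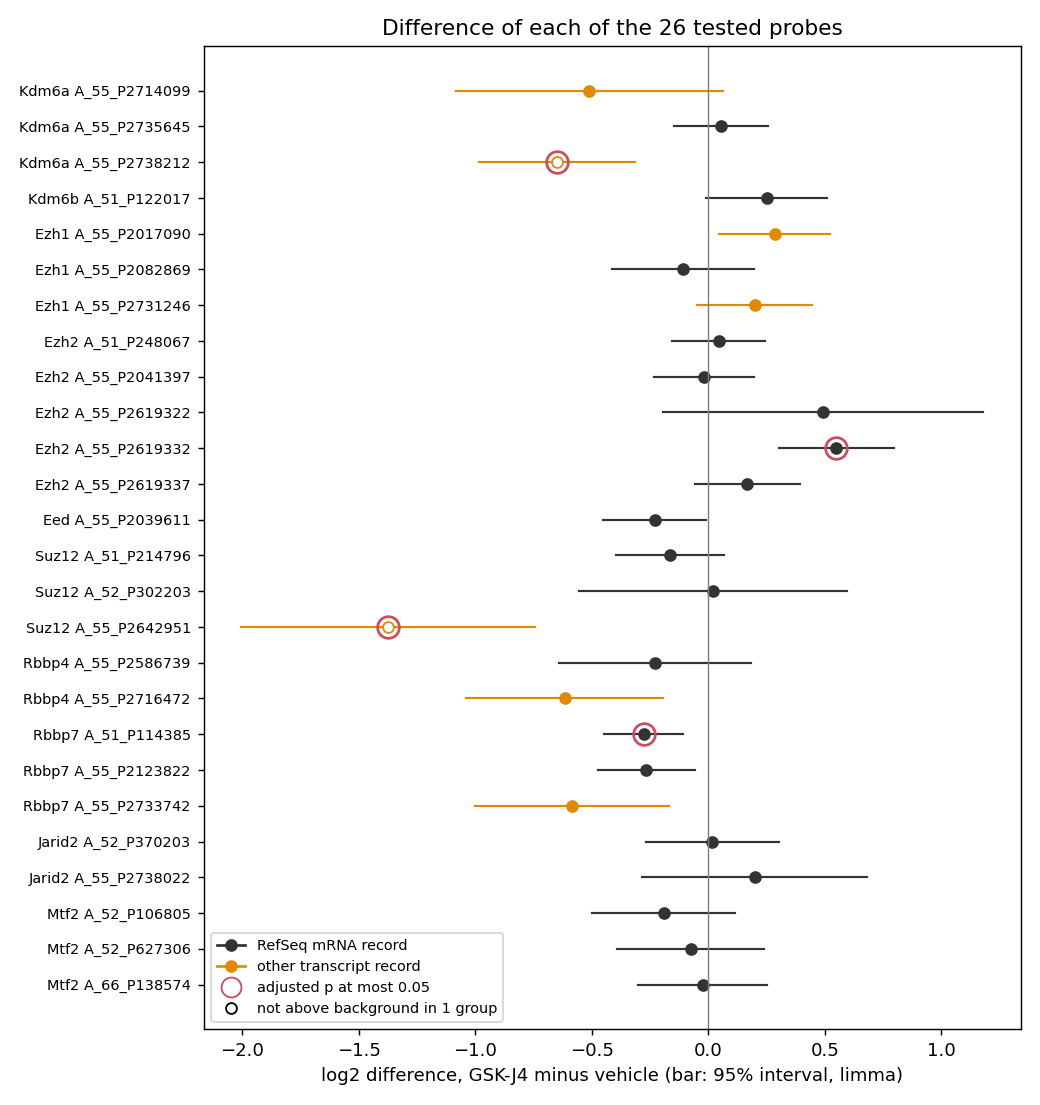
Log2 difference, GSK-J4 minus vehicle, of the 26 tested probes with 95% intervals from limma. Black marks probes with a RefSeq mRNA record, orange those with another transcript record, open symbols those not well above background on any GSK-J4 array, and red rings the 4 calls. The Ezh2 call lies at 0.55, the Rbbp7 call at −0.28, and the lowest value, −1.38, is the dim Suz12 probe.

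Signals spread more among the GSK-J4 arrays, which also share slide 2, and this spread was not tested. The SD over 3 arrays was larger with GSK-J4 for 20 of the 26 probes, with a median of 0.16 compared with 0.095 with vehicle. Over all kept probes it was larger with GSK-J4 for 63.8%, with medians of 0.16 and 0.11.

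Within the genes that have both kinds of probe, the probes without a RefSeq mRNA record had the lower differences, with Ezh1 as the exception. This was seen after the values were known. The 7 tested member probes without such a record lie in 5 genes and had a median difference of −0.59. The 19 with it lie in all 10 genes, so their median of −0.02 is not limited to genes with both kinds. In the 5 genes with both kinds, the probes with a record differed by −0.28 to 0.05. The same held on the whole array, where the 4725 probes without a RefSeq mRNA record in the 3589 genes that have both kinds had a median of −0.25, and the 5897 probes with one had a median of 0.02. In the former 940 probes were called lower and 199 higher, in the latter 333 and 438. After the correction for base composition the medians of the 7 and of the 19 member probes were −0.43 and 0.08. The split is therefore described for the members and was not read as particular to them. The 7 member probes include the Kdm6a and Suz12 probes, at −0.65 and −1.38, that had passed the filter through the vehicle arrays alone. The whole-array counts rest on the same filter. The split was not tested on the probes well above background on every array, so the part of the filter in it is not known.

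The base composition of the probes moved with the differences as well. The tested member probes had 35% to 50% GC, and 21 of the 26 had at most 40%. Of all kept probes with at most 40% GC, 13.4% were called lower and 2.81% higher. The 3 lower calls and the Ezh2 call among the members all lay in that range, where the share of the members called lower was 14.3%. After the correction for base composition 2 of the 26 member probes were called higher, those of Ezh2 (0.61) and Ezh1, where 1554 of all 34444 kept probes were. In the same fit 1 member probe was called lower, that of Suz12, where 1999 of all kept probes were. This Suz12 probe had passed the filter through the vehicle arrays alone.

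**Figure D3:**
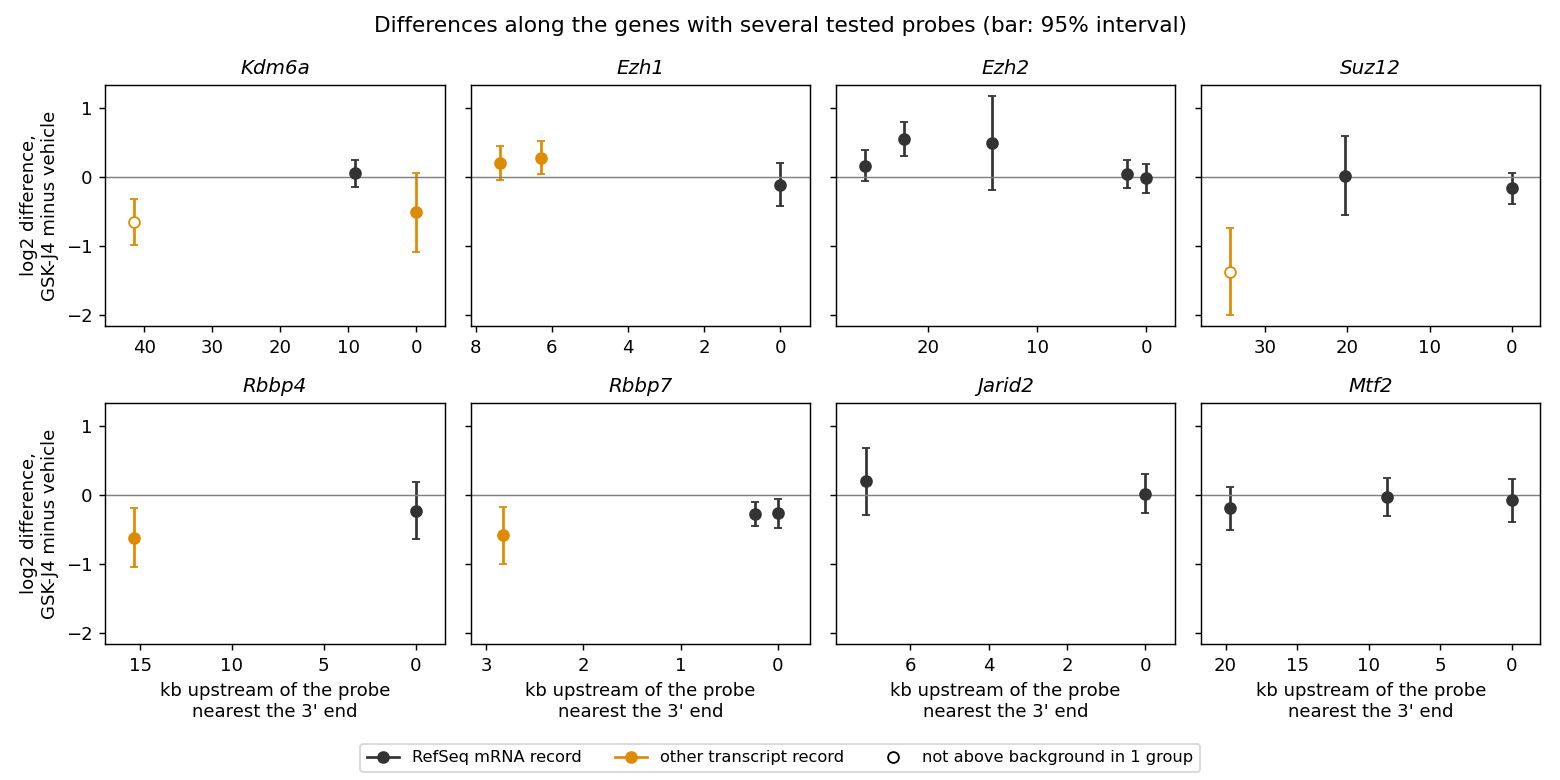
Log2 difference of each tested probe, with its 95% interval, against its distance in kb upstream of the probe nearest the 3′ end, for the 8 genes with several tested probes. Black marks RefSeq mRNA records, orange other records, and open symbols probes not well above background with GSK-J4. Along Ezh2 the differences run from 0.17 and 0.55 on the 5′ side to 0.04 and −0.02 on the 3′ side.

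The order of the differences along the gene was not the same in all members. In Ezh2 the higher differences lay at 14.2 to 25.8 kb upstream of the last probe, and in Mtf2, whose probes are also all assigned to RefSeq mRNAs, the probe 19.7 kb upstream had the lowest difference. In Kdm6a, Suz12, Rbbp4 and Rbbp7 the probe nearest the 5′ end had the lowest difference, and in each it was a probe without a RefSeq mRNA record. In Kdm6a the probe nearest the 3′ end also lacked such a record and differed by −0.51. The probes nearest the 5′ end in Kdm6a and Suz12 are those that had passed the filter through the vehicle arrays alone. Over the 5641 genes of the array with several RefSeq mRNA probes, the median difference was 0.11 for the probe nearest the 5′ end and 0.01 for that nearest the 3′ end.

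Further genes of the pathway were taken from lists written with earlier results of these data known, 7 accessory subunits and cofactors of PRC2 and 10 genes around Kdm6a. The latter are its Y-linked relative Uty and the partners of the COMPASS-like complexes, which methylate lysine 4 of histone H3. Of these 17 genes, each with the 1 probe of highest mean, limma called 1 higher and 1 lower, where 8.99% of all genes were called higher and 7.79% lower, and the median difference was 0.05, compared with 0.04 over all 22117 genes. Phf1, an accessory subunit of PRC2 related to Mtf2, read 10.16, 10.07 and 10.14 with vehicle and 10.67, 10.42 and 10.79 with GSK-J4, a difference of 0.50 (SE 0.11, limma adjusted p = 0.0344). Its groups did not overlap. The difference was 0.29 after the correction for base composition, when it was no longer called, and leaving out any array but GSK-J4 replicate 2 ended the call. Ncoa6, a coactivator that works in the complexes of Kmt2c and Kmt2d, read 12.98, 12.96 and 12.98 with vehicle and 12.54, 12.67 and 12.70 with GSK-J4, a difference of −0.34 (SE 0.07, limma adjusted p = 0.0331). A second Ncoa6 probe was called in the opposite direction, with a difference of 0.92 (SE 0.18, adjusted p = 0.0282), so the gene has no common direction. The first call ended when any array but GSK-J4 replicate 3 was left out, with the correction for base composition (−0.30, adjusted p = 0.0526), and under scaling to the 75th percentile, where the difference was −0.13. Uty differed by 0.01 (SE 0.23, 95% interval −0.56 to 0.57) on its RefSeq probe, with overlapping groups, and by −1.41 on a probe without a RefSeq mRNA record (adjusted p = 0.0299). The other 14 genes were not called on their probe of highest mean, but 3 of them had another probe that was. Rbbp5 differed by −0.35 on its probe of highest mean and by 0.65 on the called one (adjusted p = 0.0195), and Wdr5 by −0.19 and 0.61 (adjusted p = 0.0359). Lcor, at 0.05, had a probe called higher at 0.55 (adjusted p = 0.0338) and a probe called lower at −0.65 (adjusted p = 0.0163).

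**Figure D4:**
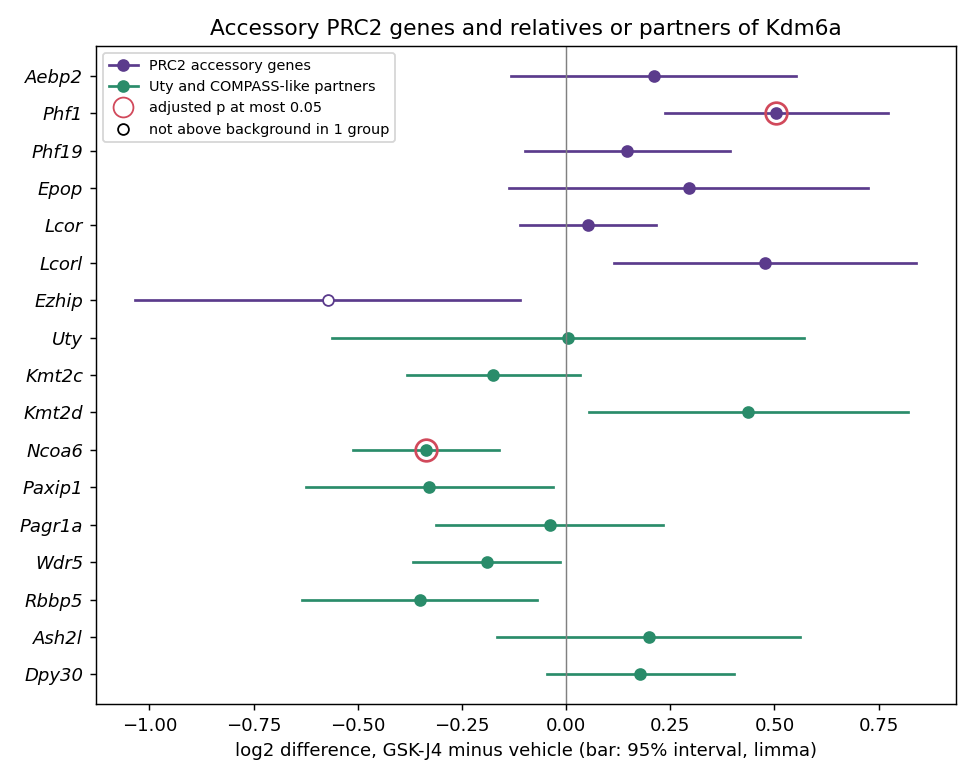
Log2 difference, GSK-J4 minus vehicle, with 95% intervals from limma, of 7 PRC2 accessory genes in purple and of Uty and 9 COMPASS-like partners of Kdm6a in green, 1 probe for each gene. The open symbol is Ezhip, which was not well above background on any GSK-J4 array. Red rings mark the calls, Phf1 at 0.50 and Ncoa6 at −0.34.

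Over the 6 arrays, the genes whose signal ran most like that of Kdm6a on its RefSeq probe were Lypd6 (Pearson r = 0.990) and Pcdh10 (r = 0.989), besides a noncoding interval without a gene symbol. For Kdm6b they were Sarnp (r = 0.995), Cd37 (r = 0.992) and Map3k10 (r = 0.991). For the called Ezh2 probe they were Slc25a39 (r = 0.999) and Timm50 (r = 0.998), besides an Ensembl transcript without a symbol. These values describe 6 arrays that share 2 slides and were picked as the highest among 30962 probes. An r of at least 0.9 was reached by 210 probes with Kdm6a, by 848 with Kdm6b and by 2255 with Ezh2, whose groups do not overlap. The levels of the members were not ranked against each other, since the brightness of different probes is not on a common scale.

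**Figure D5:**
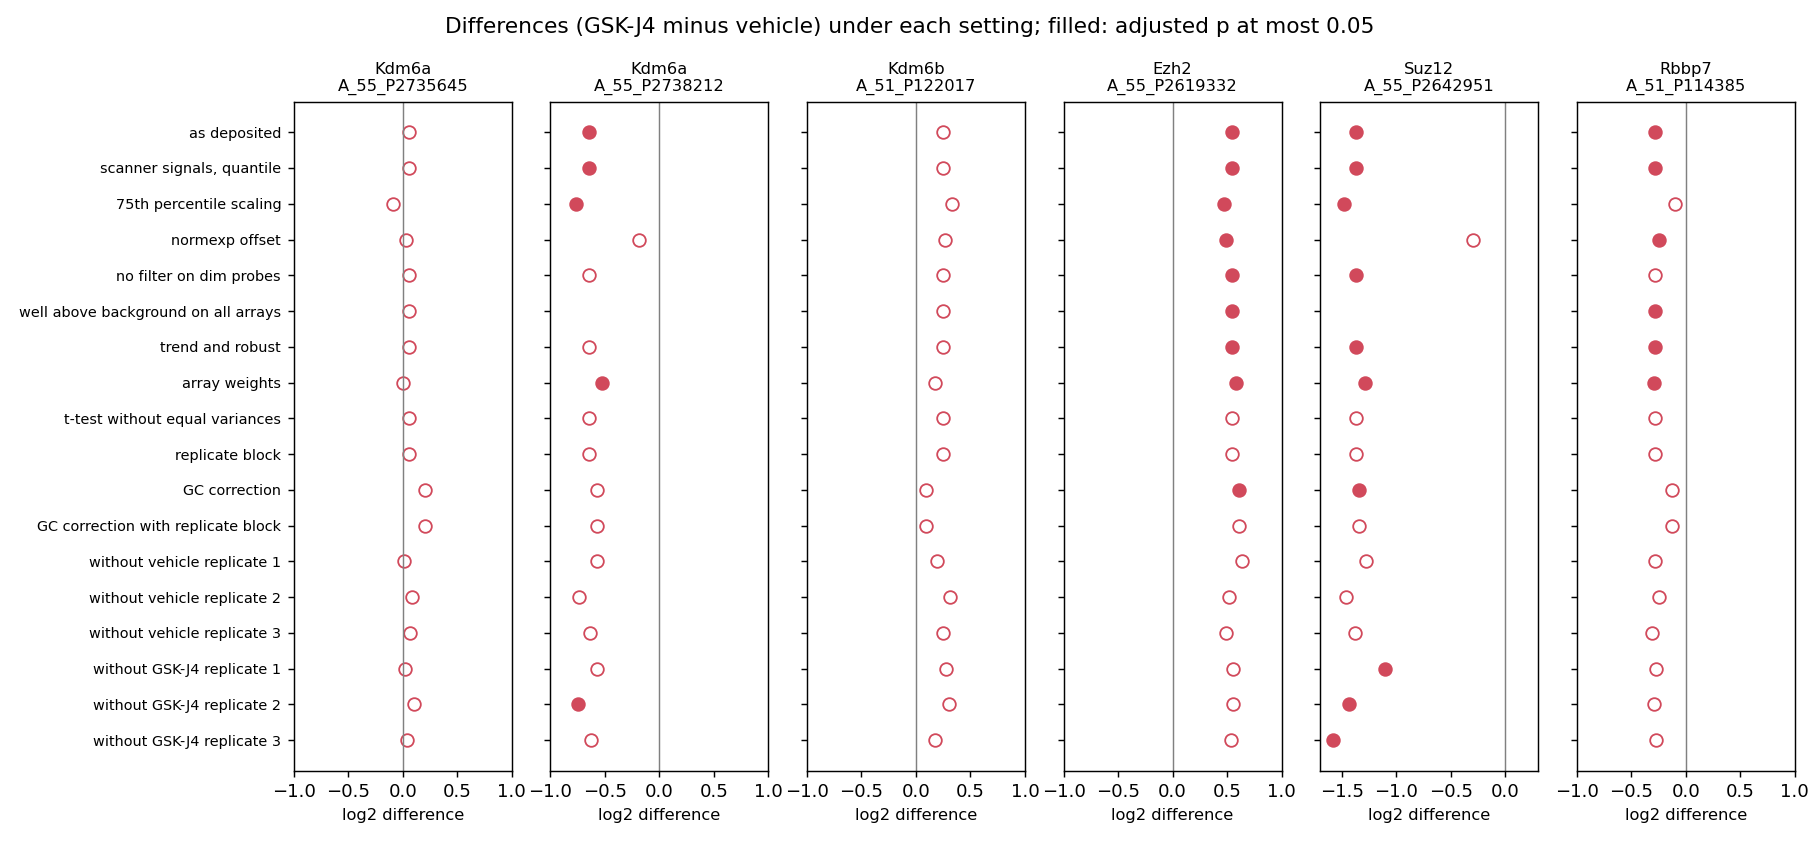
Log2 difference, GSK-J4 minus vehicle, of 6 member probes under each way of processing, filled where the adjusted p was at most 0.05 and empty otherwise. The RefSeq probe of Kdm6a lies at −0.09 under scaling to the 75th percentile and above 0 elsewhere, Kdm6b and the Ezh2 probe stay above 0, and the Kdm6a, Suz12 and Rbbp7 probes called lower stay below 0 under every setting shown. The dim Kdm6a and Suz12 probes passed the filter only through the vehicle group. They have no value where all 6 arrays had to be well above background.

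Across the ways of processing, the direction of the 4 called probes did not turn, and the size of the dim ones did change. The dim Kdm6a and Suz12 probes had passed the filter only through the vehicle group, so their constant direction is not read as support. With the background corrected by normexp and an offset, the dim Kdm6a probe differed by −0.19 and the dim Suz12 probe by −0.29. Under the same setting the Ezh2 probe differed by 0.49 and remained called. The methods' t-test without equal variances called 0 member probes and 93 of all 34443 probes after Benjamini-Hochberg adjustment. At an unadjusted p of at most 0.05 this test had 6 of the 26 member probes and 9301 of all 34443. In the limma fit 9 of the 26 member probes had an unadjusted p of at most 0.05, where 12577 of all 34444 kept probes did. These counts are given beside the background and not as a result about the members.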

How the data were processed

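Hypothalamic RNA of 6 mice was measured on 1-colour arrays. The authors extracted the intensity of each spot and its flags with Feature Extraction (10.7.1.1, per the labels) and deposited a log2 table, quantile normalized in GeneSpring per the methods. Once sorted, its columns match to within 0.00424, the correlation of a column with the intensities of the array it is named for was at least 0.999, and 0 columns were left unassigned. Coordinates are on mm9. The members and lists were chosen with earlier results of these data known.

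The deposited log2 values were compared with lmFit and eBayes (limma 3.58.1 in R 4.3.3), two-sided, without covariates. Probes well above background throughout either group of 3 arrays were kept (34444 of 56605), control spots were left out, and p-values were adjusted by Benjamini-Hochberg over all kept probes or, with the probe of highest mean for each gene, over 22117 genes. No member spot was saturated or an outlier. All 10 members are named with every probe, of the pathway lists Uty and the called genes, and the 3 genes with the highest r. The scripts were tested on simulated data. Scanner intensities were used for the flags and for alternatives, which were other scalings, filters and variance models, normexp with an offset of 50, a t-test, GC correction (lowess, span 30%), a replicate block and leaving out each array. Slide could not be fitted as a block, because each slide holds 1 group. The number of arrays limits the precision. Arrays within a group correlated at 0.978 to 0.995. Same-numbered arrays were not paired. ChIP-Seq, RT-PCR and animal data were not analysed here.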

Additional observations from a re-analysis of the deposited data

How the results depend on the processing

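Of 440 comparisons of a single member probe with its main value, 364 kept the direction and the side of the threshold, 40 lost and 7 gained a call, and 29 changed sign, in 11 probes that were not called. All kept probes called, 5788 in the main fit, became 3553 with the GC correction, 3765 without a filter on dim probes, 93 with the t-test without equal variances, and 0 with the replicate block, alone or with the GC correction. The count was higher, at 8670, with scaling to the 75th percentile, 6770 with trend and robust, 6653 with array weights and 6272 with normexp. The 4 member probes called became 2 without a filter, 2 when all arrays had to be well above background, 0 with the t-test and 0 with the replicate block, and the 4 past the thresholds of the methods became 2 with the GC correction, 2 with the t-test and 0 with normexp. The member probes called were 6 with trend and robust and 5 with array weights. They were 3 with scaling to the 75th percentile, with normexp and with the GC correction. Scaling to the 75th percentile put 5 past the thresholds of the methods. The called member gene, Ezh2, was joined by Rbbp7 under normexp and under trend and robust, 2 genes in each, and was replaced by Rbbp7 with the mean of all kept probes, and 0 genes were called with the t-test or the replicate block. The 2 pathway genes called became 4 with normexp, 1 without a filter, 1 with the mean of all kept probes, and 0 with the t-test, the GC correction or the replicate block. With 11069 probes at an unadjusted p of at most 0.05, the block still left 0 after adjustment. Leaving out 1 array gave 5 to 4166 probes in all, 0 to 2 member probes, 0 member genes and 0 to 3 pathway genes, and the totals were 10, 13 and 5 without vehicle replicates 1, 2 and 3. The causes were not tested.

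Values changed sign as follows. Scaling to the 75th percentile gave −0.088 for Kdm6a A_55_P2735645, 0.17 for Ezh1 A_55_P2082869, −0.088 for Ezh2 A_51_P248067, −0.061 for Suz12 A_52_P302203, 0.060 for Rbbp4 A_55_P2586739, 0.014 for Rbbp7 A_55_P2123822, 0.012 for Mtf2 A_52_P627306, 0.033 for Mtf2 A_66_P138574 and −0.13 for Uty. The GC correction, with or without the replicate block, gave 0.135 for Ezh2 A_55_P2041397, 0.079 for Mtf2 A_52_P627306, 0.010 for Mtf2 A_66_P138574 and −0.013 for Uty. Array weights gave −0.093 and normexp −0.0068 for Suz12 A_52_P302203, and normexp gave 0.039 for Mtf2 A_66_P138574. The mean of all kept probes gave −0.70 for Uty and 0.18 for Ncoa6, which was called at −0.34 on its probe of highest mean. Leaving out 1 array gave −0.079 to 0.019 for Ezh2 A_55_P2041397, −0.086 to 0.097 for Jarid2 A_52_P370203, −0.0088 to 0.35 for Jarid2 A_55_P2738022, −0.14 to 0.045 for Mtf2 A_52_P627306, −0.076 to 0.078 for Mtf2 A_66_P138574, −0.22 to 0.17 for Suz12 A_52_P302203 and −0.19 to 0.15 for Uty. The replicate numbers were not used as pairs, since same-numbered arrays deviated together with correlations of 0.0072, 0.0280 and 0.0840 and 2 of the 3 pairs correlated best with their own number. Signal over background limits the dim probes of Kdm6a, Suz12 and Jarid2. The fitted differences of the dim Kdm6a and Suz12 probes are not to be read as folds, and the dim Jarid2 probe was not tested.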
